A study of Mus musculus with 4 samples.

Results

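Cholesterol synthesis was described through 8 of its enzymes, the products of Hmgcs1, Mvd, Idi1, Fdps, Fdft1, Sqle, Lss and Cyp51, in mouse mammary fibroblasts. Every probe set that the array annotation gave to exactly 1 gene, equal to 1 of these 8, was taken. This gave 21 probe sets of the 20393 with a single gene, and the 8 genes stand among 12394 genes measured. RNA of cultured, second-passage fibroblasts from female FVB/N mice of 9 weeks was hybridised to Affymetrix arrays, with 1 array for each of 4 groups. The groups were PyMT Ets2-null (genotype PyMT;Fsp-cre;Ets2db/loxP), PyMT Ets2-present (PyMT;Ets2db/loxP), normal Ets2-null (Fsp-cre;Ets2db/loxP) and normal Ets2-present (Ets2db/loxP). All carried a conventional Ets2 knockout allele (Ets2db, which targets the DNA-binding domain) beside a conditional allele, so the Ets2-present mice had a single intact copy and no group was wild type for Ets2. Cre was driven by the Fibroblast Specific Protein 1 promoter and was present in the Ets2-null groups alone, so Cre and loss of Ets2 cannot be told apart. The PyMT oncogene was expressed in mammary epithelial cells, not in the fibroblasts measured. How many mice gave each culture is not given in the sources used here.

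Cells build cholesterol from acetyl-CoA through mevalonate, isoprenoid diphosphates, squalene and lanosterol. The genes of the pathway share a control: when sterols in the endoplasmic reticulum run low, SREBP transcription factors (Srebf1 and Srebf2) are carried to the Golgi by the escort protein Scap and cleaved there, and they then switch on most of its enzymes together with genes of lipoprotein uptake. Fibroblasts in culture are the cells in which much of this feedback was first worked out.

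Of the 8 genes, 5 (Hmgcs1, Mvd, Idi1, Lss and Cyp51) had a promoter window in the RefSeq promoter table of build GRCm38.p6. All 5 held at least 1 CCAAT box and at least 1 GC box, searched as CCAAT and GGGCGG on both strands in the 250 bases before the gene start. Among all 32851 windows of that length, 33.8% held CCAAT and 32.7% held GGGCGG. The sterol regulatory element, searched as TCACNCCAC, was found in Hmgcs1 alone of the 5, and in 1.05% of all windows. There it lay 137 to 129 bases before the start, and its last 2 bases overlapped a match to the ETS core GGAAGT on the other strand (bases 130 to 125; 19.7% of all windows). The E-box CACGTG was found in 0 of the 5 windows and in 6.02% of all. A match is a run of letters and not a bound site. No other spelling was searched, so a window without a match may still hold another form. A few windows follow, shown because Hmgcs1 holds the sterol element, Mvd had the widest range over the arrays and Cyp51 acts last of the 8. They are Hmgcs1 at chr13:119690101-119690350 (plus strand), Mvd at chr8:122443423-122443672 (minus strand) and Cyp51 at chr5:4104698-4104947 (minus strand), written 5′ to 3′ along the gene, with the sterol element, CCAAT boxes and GC boxes in capitals.
Hmgcs1: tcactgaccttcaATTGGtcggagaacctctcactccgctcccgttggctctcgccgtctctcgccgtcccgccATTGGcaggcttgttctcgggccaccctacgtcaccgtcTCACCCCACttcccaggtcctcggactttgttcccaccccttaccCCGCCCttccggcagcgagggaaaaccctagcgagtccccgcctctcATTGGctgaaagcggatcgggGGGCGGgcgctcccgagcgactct
Mvd: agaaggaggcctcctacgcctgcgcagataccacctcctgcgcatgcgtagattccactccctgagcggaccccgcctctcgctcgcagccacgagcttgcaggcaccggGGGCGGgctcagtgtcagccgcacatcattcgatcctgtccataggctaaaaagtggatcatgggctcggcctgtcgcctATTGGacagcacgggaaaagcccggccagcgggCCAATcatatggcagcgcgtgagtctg
Cyp51: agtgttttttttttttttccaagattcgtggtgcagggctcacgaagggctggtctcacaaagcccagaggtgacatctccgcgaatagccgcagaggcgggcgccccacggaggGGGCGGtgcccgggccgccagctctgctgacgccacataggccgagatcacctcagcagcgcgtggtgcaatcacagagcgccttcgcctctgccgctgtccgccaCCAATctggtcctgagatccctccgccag

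The values are log2 probe set levels, and a difference of 1 is 2-fold. A gene was kept when its highest array reached 4.63, the 40th percentile of all values, which left 8687 genes, for each of which the probe set with the highest mean stands. With 1 array a group, a difference is one between 2 arrays, with no replicate error and no p-value. For scale, the SD of a difference that different probe sets of the same gene imply was from 0.34 to 0.50 per probe set over the 4 differences taken. The PyMT Ets2-null array stood somewhat apart. It correlated with the others at 0.959 to 0.969, against 0.970 to 0.985 among them, and its 18S ribosomal RNA control levels were 0.98 to 2.61 higher. The 3′ minus 5′ difference of the Gapdh controls was 0.859 and 0.997 in the PyMT arrays, against 0.790 and 0.763 in the normal arrays, and that of the actin controls 2.02 and 2.14 against 2.38 and 1.95, Ets2-null first in each pair. The Ets2 probe set read 11.2 in both PyMT arrays, against 11.9 in both normal arrays. Its place in the gene against the excised exons is unknown, so it checks nothing about the deletion. All 12 fibroblast markers reached the filter level in every array. Summed linear levels of 12 macrophage markers were 869 and 1253 in the PyMT arrays, against 484 and 551 in the normal arrays, Ets2-null before Ets2-present. Without Lyz2, the brightest of them, they were 324 and 692 against 346 and 383, so the PyMT Ets2-null array was then not higher. Sums of 6 adipocyte markers were 1153 and 1269 against 169 and 259, with the defining Adipoq under the filter level in all 4. Pparg, kept like Fabp4, was also higher with PyMT, at 6.37 and 7.80 against 4.75 and 4.84. Without Fabp4, the brightest, the adipocyte sums were 133 and 271 against 56 and 60. Sums of 9 epithelial markers were 319 and 294 against 213 and 385. Without Krt19, the brightest, they were 171 and 130 against 192 and 354. The 5 kept epithelial markers went both ways with PyMT, as in Krt19 (2.82 and 2.38) and Krt18 (-2.24 and -3.82). Krt18 lay under the filter level in both PyMT arrays (4.49 and 4.23), and Krt19 in the normal Ets2-null array (4.385). Of the 9, 4 and 2 reached that level in the PyMT arrays and 2 and 3 in the normal arrays, Ets2-null first. Sums of 7 endothelial markers were 130 and 104 against 173 and 130, with Kdr lower (-2.45 and -2.17) and Tek higher (1.43 and 0.80). At most 1 of the 7 reached the filter level in any array, so these sums and differences lie mostly near background. Kdr lay under that level in both PyMT arrays (4.35 and 3.94), and Tek reached it in the PyMT Ets2-null array alone (5.23). With PyMT the fibroblast markers went both ways, with medians of -0.02 in Ets2-null and -0.10 in Ets2-present fibroblasts; the proteoglycan genes Lum (-5.80 and -2.53) and Dcn (-2.41 and -1.11) were lower, while Pdgfrb (1.01 and 0.31) and Fn1 (0.84 and 0.20) were higher.

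The comparison of PyMT with normal asks how fibroblasts of a gland with the oncogene differ from those of a gland without it. All 8 enzymes were lower in fibroblasts from PyMT mice than in fibroblasts from normal mice, whether Ets2 was null or present (47.5% of kept genes were below 0 in Ets2-null and 50.4% in Ets2-present fibroblasts). In every one, both PyMT arrays lay below both normal arrays, a pattern found in 23.3% of the kept genes. In Ets2-null fibroblasts the median log2 difference of the 8 was -1.21, and in Ets2-present fibroblasts it was -0.88, where the medians of all kept genes were 0.05 and -0.01. These differences use separate pairs of arrays. Between PyMT and normal Ets2-null fibroblasts, 8 of 8 enzymes were at least 1.5-fold lower (21.2% of kept genes) and 7 of 8 at least 2-fold lower (11.2%). With the mean over probe sets these counts were 7 (1664 of 8272 kept genes) and 6. Fdft1 then stood at -0.48, a mean that includes probe sets under the filter level. The count at 2-fold was also 6 after median centring or without the probe sets marked as shared or cross-hybridising. Between PyMT and normal Ets2-present fibroblasts, a comparison that does not use the PyMT Ets2-null array, 6 of 8 were at least 1.5-fold lower (14.0%) and 3 of 8 at least 2-fold lower (6.23%); the count at 2-fold was 1 with the mean over probe sets, and 2 after each other normalization or without the probe sets marked as shared or cross-hybridising. In both at once, 6 of 8 were at least 1.5-fold lower (6.96%) and 3 of 8, Mvd, Fdps and Lss, at least 2-fold lower (2.98%). The adipocyte marker sum was higher in the same PyMT arrays, mostly through Fabp4, and the macrophage sum, which in Ets2-null fibroblasts was higher through Lyz2 alone, was too. The part of these cells, or of epithelial and endothelial cells, in the differences was not tested. In RNA of a whole culture, fewer cells of a type and less RNA per cell cannot be told apart.

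**Figure D1:**
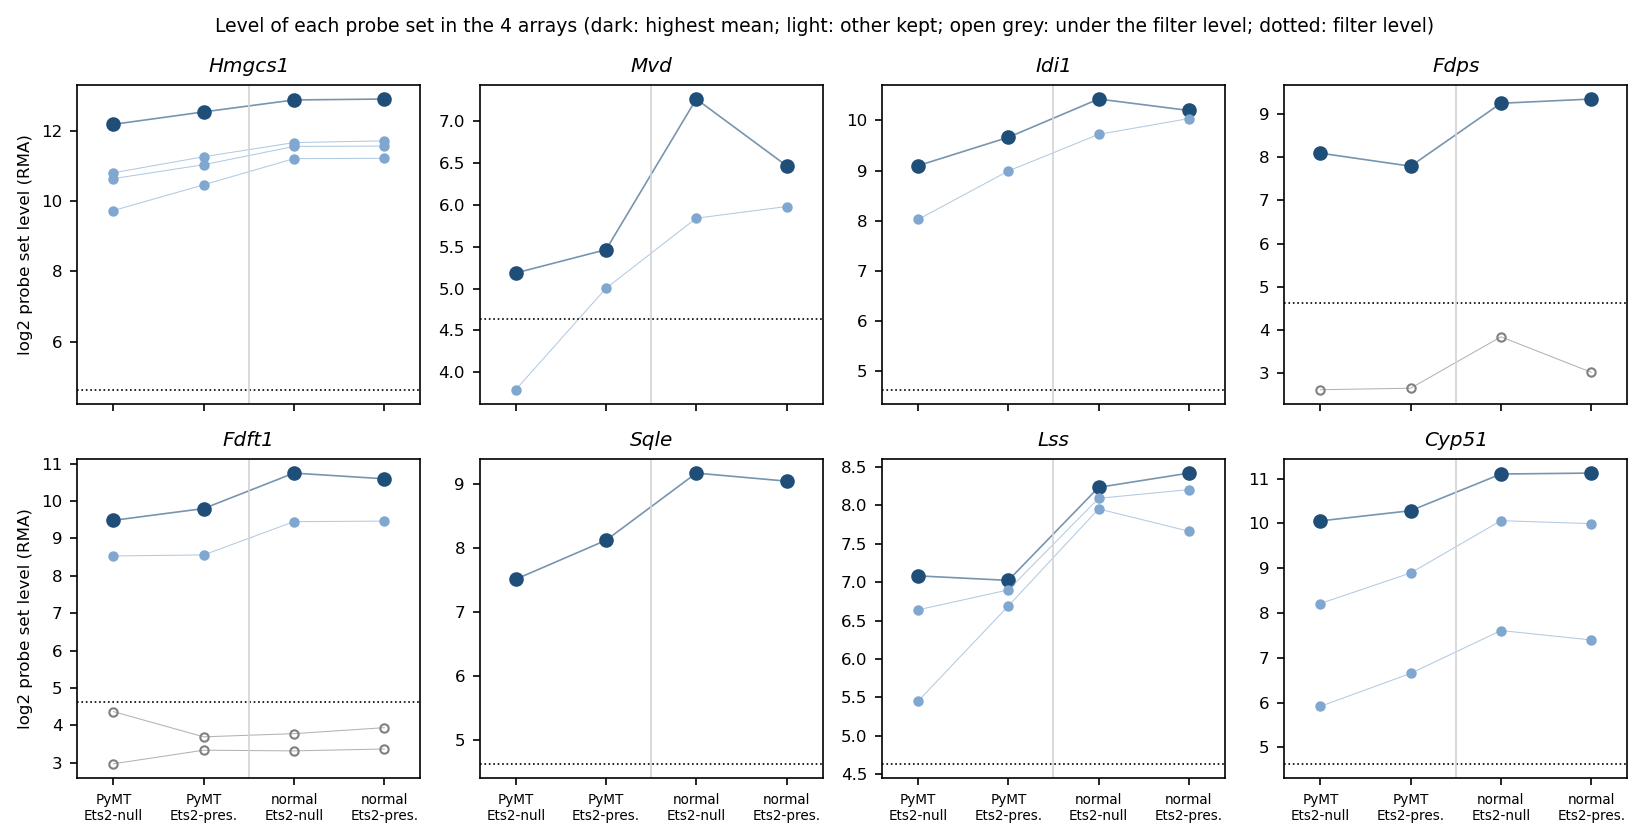
Log2 level (RMA) of all 21 probe sets of the 8 enzymes in the PyMT Ets2-null, PyMT Ets2-present, normal Ets2-null and normal Ets2-present array, with an axis of its own for each gene. Dark points are the probe set of highest mean, light points other kept probe sets, open grey points the 3 that stayed under the filter level (dotted line), and lines join the values of a probe set; in the 18 kept probe sets both PyMT arrays lie below both normal arrays.

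The first enzymes of the route make mevalonate and the isoprenoid building blocks. Hmgcs1, the cytosolic HMG-CoA synthase, had levels of 12.18 (PyMT Ets2-null) and 12.54 (PyMT Ets2-present), against 12.88 (normal Ets2-null) and 12.90 (normal Ets2-present). It had the smallest PyMT differences of the 8, 1.62-fold lower in Ets2-null and 1.29-fold lower in Ets2-present fibroblasts. Its other 3 probe sets gave larger differences in Ets2-null fibroblasts, down to -1.48 (and -0.75 in Ets2-present fibroblasts) for one of them. That probe set read 9.73 and 10.46 in PyMT Ets2-null and Ets2-present fibroblasts, against 11.21 and 11.21 in normal ones. The next read 10.64 and 11.03 against 11.55 and 11.56 in the same order, and the last 10.80 and 11.26 against 11.66 and 11.71. In each of the 4, both PyMT arrays lay below both normal arrays (22.6% of all kept single-gene probe sets).

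Mvd, the decarboxylase that makes isopentenyl diphosphate, had levels of 5.18 and 5.46 in PyMT Ets2-null and Ets2-present fibroblasts, against 7.26 and 6.46 in normal Ets2-null and Ets2-present fibroblasts. It was 4.21-fold lower with PyMT in Ets2-null fibroblasts, where 1.98% of kept genes were as low or lower, and 2.00-fold lower, at the threshold itself, in Ets2-present fibroblasts. The second Mvd probe set gave nearly the same PyMT differences, -2.04 and -0.97, with levels of 3.79 and 5.003 in PyMT Ets2-null and Ets2-present fibroblasts, against 5.84 and 5.98 in normal ones; the first of these is under the filter level. Idi1, the isomerase that converts isopentenyl into dimethylallyl diphosphate, read 9.10 and 9.66 in PyMT Ets2-null and Ets2-present fibroblasts, against 10.42 and 10.20 in their normal counterparts. That is 2.51-fold lower in Ets2-null and 1.45-fold lower in Ets2-present fibroblasts, and the second probe set (8.02 and 8.99 in PyMT, against 9.72 and 10.04 in normal fibroblasts) gave -1.70 and -1.04.

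Fdps, which condenses these units into farnesyl diphosphate, the branch point towards sterols and protein prenylation, had levels of 8.09 and 7.79 in PyMT Ets2-null and Ets2-present fibroblasts, against 9.24 and 9.34 in normal ones. It was 2.23-fold lower in Ets2-null and 2.94-fold lower in Ets2-present fibroblasts, and the PyMT Ets2-present array held its lowest value. In Ets2-present fibroblasts it had the largest PyMT difference of the 8, and 2.28% of kept genes were as low. The other Fdps probe set, at 2.62 and 2.65 in PyMT against 3.84 and 3.02 in normal fibroblasts, was not kept.

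Fdft1, the squalene synthase that commits farnesyl diphosphate to sterols, read 9.48 and 9.80 in PyMT Ets2-null and Ets2-present fibroblasts, against 10.75 and 10.59 in normal ones. It was 2.40-fold and 1.74-fold lower, and its second kept probe set (8.53 and 8.56 in PyMT, against 9.45 and 9.46 in normal fibroblasts) gave -0.92 and -0.90. The brighter of these carries the suffix that Affymetrix gives to probe sets that may cross-hybridise. The remaining 2 Fdft1 probe sets stayed under the filter level, at 2.98 and 3.34 in PyMT against 3.32 and 3.37 in normal fibroblasts, and at 4.37 and 3.69 against 3.78 and 3.94. In neither did both PyMT arrays lie below both normal arrays. Sqle, the squalene epoxidase, a rate-limiting oxygen-dependent step, had levels of 7.52 and 8.13 in PyMT Ets2-null and Ets2-present fibroblasts, against 9.18 and 9.05 in normal ones. It was 3.16-fold lower in Ets2-null and 1.90-fold lower in Ets2-present fibroblasts, and is measured by a single probe set.

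Lss, which closes the ring to lanosterol, read 7.08 and 7.02 in PyMT Ets2-null and Ets2-present fibroblasts, against 8.24 and 8.42 in normal ones, a difference of 2.23-fold and 2.64-fold. Its second probe set read 6.64 and 6.90 in PyMT Ets2-null and Ets2-present fibroblasts, against 8.09 and 8.21 in normal ones, and the last 5.45 and 6.69 against 7.96 and 7.66. All 3 were lower with PyMT, but their differences spread from -2.51 to -1.15 in Ets2-null and from -1.40 to -0.97 in Ets2-present fibroblasts. Cyp51, the cytochrome that demethylates lanosterol, had levels of 10.06 and 10.29 in PyMT Ets2-null and Ets2-present fibroblasts, against 11.10 and 11.12 in normal ones. It was 2.07-fold lower in Ets2-null and 1.79-fold lower in Ets2-present fibroblasts, and its other probe sets gave larger differences in Ets2-null fibroblasts. The next probe set read 8.21 and 8.89 in PyMT Ets2-null and Ets2-present fibroblasts, against 10.06 and 10.00 in normal ones (-1.85 and -1.10), and the last 5.92 and 6.65 against 7.61 and 7.40 (-1.69 and -0.75).

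Over the 18 kept probe sets, both PyMT arrays lay below both normal arrays in 18, against 22.6% of all kept single-gene probe sets. In Ets2-null fibroblasts 18 of the 18 were at least 1.5-fold lower with PyMT (21.3% of all kept single-gene probe sets) and 14 at least 2-fold lower (10.9%). In Ets2-present fibroblasts these numbers were 14 (14.3%) and 6 (5.94%). Probe sets of a gene share its RNA and are not replicates.

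**Figure D2:**
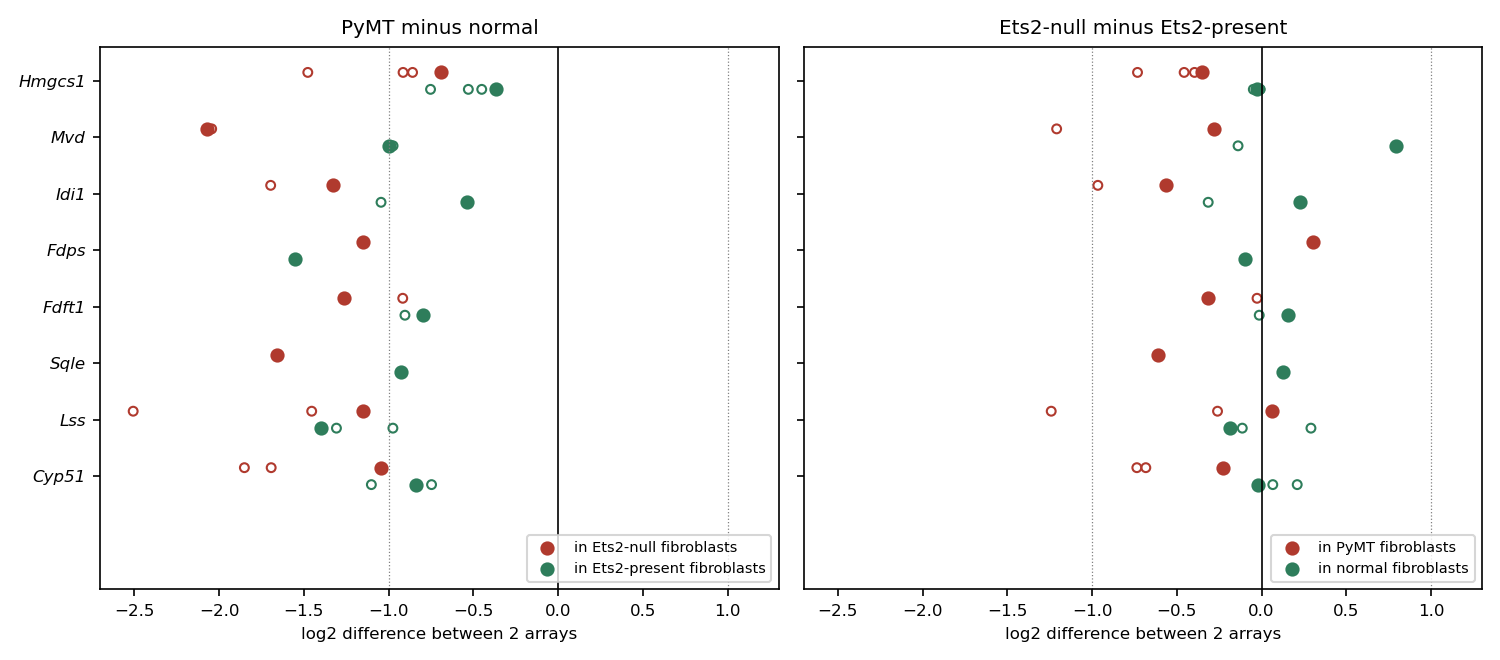
Log2 difference of each kept probe set of the 8 enzymes, PyMT minus normal (left) in Ets2-null (red) and Ets2-present (green) fibroblasts, and Ets2-null minus Ets2-present (right) in PyMT (red) and normal (green) fibroblasts. Filled points are the probe set of highest mean and open points the others, with dotted lines at 2-fold; every point on the left is below 0, while those on the right fall on both sides.

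**Figure D3:**
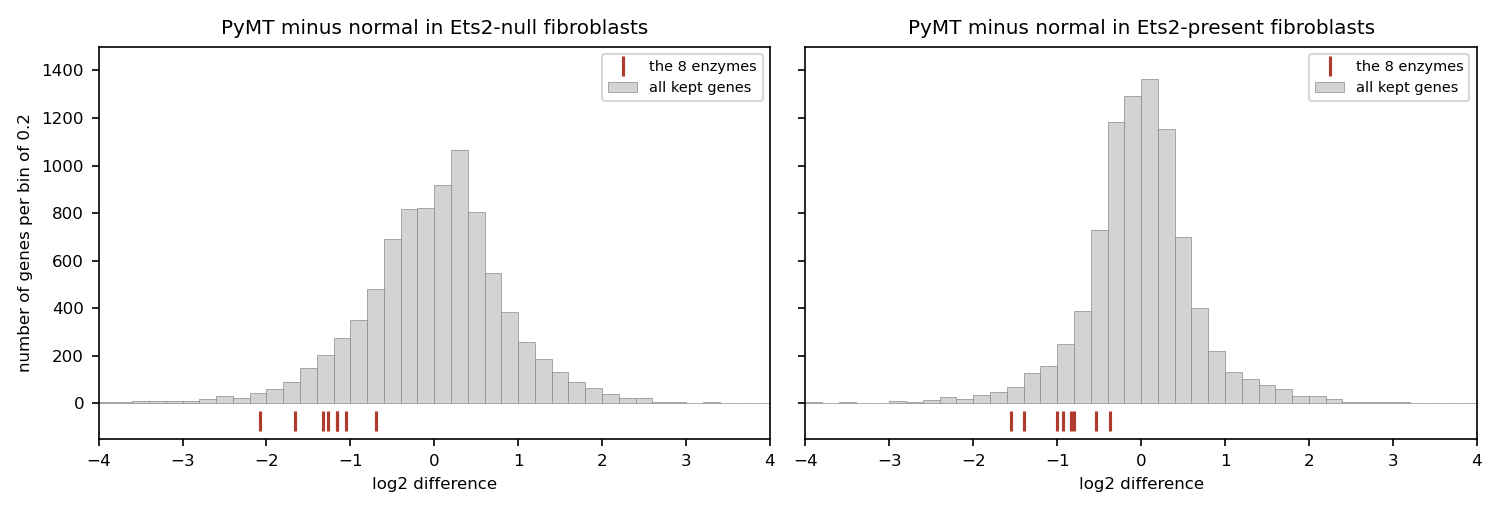
Number of the 8687 kept genes by log2 difference, PyMT minus normal, in Ets2-null (left) and Ets2-present (right) fibroblasts, with the 8 enzymes as red ticks. The ticks lie from -2.07 to -0.69 on the left and from -1.55 to -0.37 on the right; the axis ends at 4 in either direction.

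The other comparison asks what changes in fibroblasts when Ets2 is lost, and its differences were smaller. Between Ets2-null and Ets2-present PyMT fibroblasts, 6 of 8 enzymes were lower (48.7% of kept genes were below 0), with a median of -0.30 against 0.02 over all kept genes. Only Sqle, at 1.53-fold, was at least 1.5-fold lower (16.9%), and 0 of 8 were 2-fold lower (7.77%). Idi1 was 1.48-fold, Hmgcs1 1.28-fold, Fdft1 1.24-fold, Mvd 1.21-fold and Cyp51 1.17-fold lower. Fdps was 1.23-fold and Lss 1.04-fold higher. Several genes depended on the probe set. Of the 18 kept probe sets, 16 were below 0, a count for which the share over all kept probe sets was not taken. Among them were the other 2 of Lss (-0.26 and -1.24), the second of Mvd (-1.21) and the second of Idi1 (-0.97). With each gene taken as the mean over its probe sets the median was -0.52, and 3 of 8 were at least 1.5-fold lower (1350 of 8272 kept genes). After quantile normalization, cyclic loess or median centring 0 were (1422 of 8667, 1409 of 8666 and 1226 of 8718 kept genes). Of all kept genes 1469 were at least 1.5-fold lower and 1420 higher, and 1226 and 1827 after median centring, which moved their median to 0.13.

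In normal fibroblasts the enzymes lay close to 0 between Ets2-null and Ets2-present arrays, with a median of 0.05 against -0.02 over all kept genes. Of the 8, 4 were below 0 (52.7% of kept genes) and 4 above it, and 0 were at least 1.5-fold lower (7.66%). Mvd was the exception, 1.74-fold higher in normal Ets2-null fibroblasts (8.08% of kept genes were at least 1.5-fold higher). Its second probe set gave -0.14, so this difference rests on a single probe set, whose suffix marks probes shared by several transcripts.

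When the Ets2 difference of normal fibroblasts was taken from the one of PyMT fibroblasts, the median was -0.40 (0.04 over all kept genes). Of the 8, 6 were below 0 (46.9%). In this subtraction 3 of 8, Mvd, Idi1 and Sqle, were at least 1.5-fold lower (20.1%) and 1, Mvd, at least 2-fold lower (11.2%). Fdps (0.40) and Lss (0.25) were above 0, and turned to -0.23 and -0.48 with each gene as the mean over all its probe sets. For Fdps that mean includes a probe set under the filter level. In 4 of 8 the Ets2 difference was below 0 in PyMT and above 0 in normal fibroblasts (23.7%), and in 6 of 8 its signs were opposite (51.4%). The 2 Mvd probe sets, which disagreed in each Ets2 difference, gave -1.07 in both cases here.

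The PyMT Ets2-null array held the lowest value of the 4 in 6 of the 8 enzymes (32.9% of kept genes). Between the normal arrays the enzymes other than Mvd differed by 0.23 or less on their brightest probe sets. Other kept probe sets reached -0.32 in Idi1 and 0.29 in Lss. Small differences were common between the normal arrays: of the 8687 kept genes, 2002 lay from -0.2 to 0 and 1843 from 0 to 0.2.

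The other enzymes of the same route were mostly lower with PyMT as well. Of 12 listed, 9 were measured and kept, and the others were not analysed here. In Ets2-null fibroblasts 9 of 9 were at least 1.5-fold lower with PyMT (21.2% of kept genes) and 6 at least 2-fold lower (11.2%), with a median of -1.36. In Ets2-present fibroblasts 8 of 9 were below 0 (50.4%), 4 of 9 at least 1.5-fold lower (14.0%) and 2 of 9 at least 2-fold lower (6.23%), with a median of -0.56. Pmvk, the phosphomevalonate kinase, had levels of 6.25 and 6.14 in PyMT Ets2-null and Ets2-present fibroblasts, against 8.25 and 8.20 in normal ones, differences of -2.00 and -2.06. Tm7sf2, a sterol reductase, was -2.06 and -1.44, with its PyMT arrays just over the filter level (4.78 and 4.84). Mvk, the mevalonate kinase, was -1.93 in Ets2-null but only -0.42 in Ets2-present fibroblasts. It too lay near that level in the PyMT Ets2-null array (4.93). The sterol enzymes Hsd17b7 (-1.76 and -0.56), Msmo1 (-1.36 and -0.40) and Dhcr7 (-1.05 and -0.51) likewise had their larger difference in Ets2-null fibroblasts. Sc5d was nearly the same in both (-0.66 and -0.65), Nsdhl was lower in Ets2-present fibroblasts (-0.69 and -0.84), and Ebp was -0.71 in Ets2-null and 0.12 in Ets2-present fibroblasts. Between Ets2-null and Ets2-present PyMT fibroblasts, Mvk (-1.20), Msmo1 (-1.08) and Hsd17b7 (-1.03) were at least 2-fold lower, the last with a sign that turned when its probe sets were averaged (0.11).

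Among the regulators of the pathway, 5 of 7 listed were kept, and at least 1.5-fold lower with PyMT were 2 of 5 in Ets2-null (21.2% of kept genes) and 1 of 5 in Ets2-present fibroblasts (14.0%). Srebf1 was -1.08 in Ets2-null and -0.57 in Ets2-present fibroblasts with PyMT, and Srebf2, the form tied most closely to sterol synthesis, was -0.59 and -0.64. Insig2, which holds Scap back in the endoplasmic reticulum, was higher with PyMT in Ets2-null fibroblasts (1.08; 0.18 in Ets2-present fibroblasts). Scap (-0.44 and -0.37) and the protease gene Mbtps1 (0.13 and -0.30) stayed within 1.5-fold. Insig1 and Mbtps2 were not analysed here.

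Of the uptake and transport genes, 5 of 10 were kept, and 2 of 5 were at least 1.5-fold lower with PyMT in Ets2-null (21.2%) and in Ets2-present fibroblasts (14.0%). Scarb1, a lipoprotein receptor (-1.16 in Ets2-null and -0.65 in Ets2-present fibroblasts), and Stard4, a sterol carrier (-1.13 and -0.61), were lower with PyMT. The lysosomal genes Npc1 (0.42 in both), Npc2 (0.23 and 0.54) and Lipa (0.53 and 0.35) were above 0 but within 1.5-fold. The LXR and efflux list, whose genes respond to oxysterols or export cholesterol, was mixed, with 3 of 6 kept genes at least 1.5-fold higher (21.1% of all kept genes) and 1 lower in Ets2-null fibroblasts, and 2 higher (13.0%) and 1 lower in Ets2-present fibroblasts. Abcg1, a sterol exporter, had levels of 8.85 and 6.86 in PyMT Ets2-null and Ets2-present fibroblasts, against 6.37 and 5.87 in normal ones, differences of 2.48 and 0.99. Ch25h, which makes an oxysterol (1.14 and 1.60), and Apoe, a lipid carrier (1.43 and 0.47), were also higher. In the normal Ets2-null and Ets2-present arrays Apoe lay under the filter level (4.536 and 4.555), so it was kept through the PyMT arrays alone. Ch25h lay just over that level there (4.703 and 4.729). Abca1, the exporter to apolipoprotein A-I, was lower (-1.15 and -1.24), and Mylip was within 1.5-fold (-0.39 and -0.33). Between Ets2-null and Ets2-present PyMT fibroblasts Abcg1 was 1.99, Apoe 0.94, Abca1 0.74 and Mylip 0.67 higher, and between Ets2-null and Ets2-present normal fibroblasts Mylip was 0.73 and Abca1 0.65 higher.

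Fatty acid synthesis, the other branch under SREBP control, was lower with PyMT in 9 of 10 kept genes in either Ets2 state (47.5% of all kept genes in Ets2-null and 50.4% in Ets2-present fibroblasts), with medians of -0.33 in Ets2-null and -0.57 in Ets2-present fibroblasts. At least 1.5-fold lower were 3 of the 10 in Ets2-null (21.2%) and 5 in Ets2-present fibroblasts (14.0%). Elovl6, a fatty acid elongase, read 7.28 and 7.05 in PyMT Ets2-null and Ets2-present fibroblasts, against 9.01 and 9.10 in normal ones, differences of -1.74 and -2.05. Fasn, the fatty acid synthase, was -1.51 and -0.61, and Acss2, an acetyl-CoA synthetase, -0.67 and -1.26. The desaturases Scd2 (-0.26 and -0.71) and Fads2 (-0.24 and -0.62) were at least 1.5-fold lower in Ets2-present fibroblasts alone, a contrast whose difference was not tested. Of the 6 kept genes that use isoprenoids outside sterol synthesis, 3 were below 0 with PyMT in Ets2-null (47.5% of all kept genes) and 1 in Ets2-present fibroblasts (50.4%). The first count is near the share of all kept genes. Their medians were 0.01 and 0.21, with Ggps1, which draws on farnesyl diphosphate for geranylgeranyl diphosphate, at 0.49 and 0.41. Fntb, a farnesyltransferase subunit, was -0.91 in Ets2-null and 0.55 in Ets2-present fibroblasts. Rabggta, of the enzyme that prenylates Rab proteins, stayed near 0 with PyMT (-0.13 and 0.05) but was lower in Ets2-null than in Ets2-present fibroblasts, with differences of -0.94 in PyMT and -0.77 in normal ones.

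**Figure D4:**
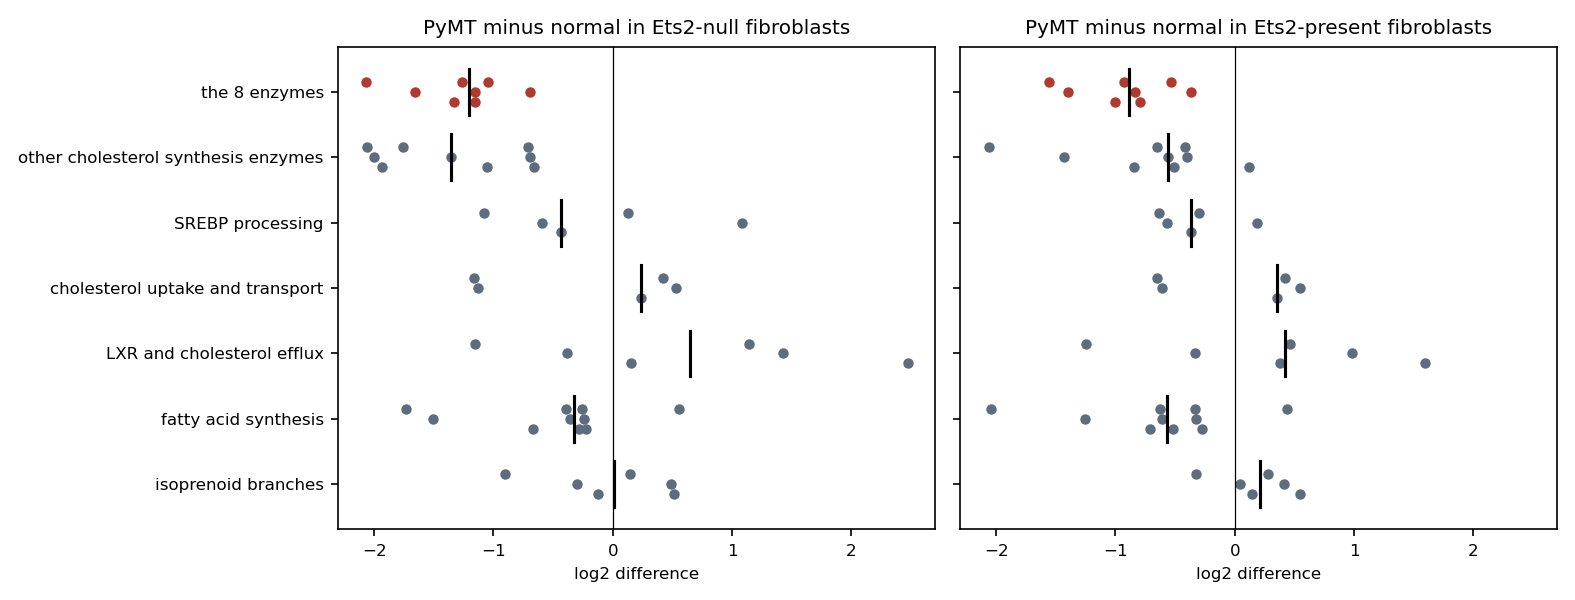
Log2 difference, PyMT minus normal, of each kept gene of 7 lists in Ets2-null (left) and Ets2-present (right) fibroblasts, with black bars at the list medians and the 8 enzymes in red. The medians of the 8 enzymes (-1.21 and -0.88) and of the other cholesterol enzymes (-1.36 and -0.56) lie below 0, those of the efflux list (0.65 and 0.42) above it.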

How the data were processed

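Affymetrix mouse expression arrays were hybridised with RNA of 4 fibroblast cultures, 1 per group, with groups taken from the genotype labels. The values deposited are on a log2 scale, from the authors' RMA, which corrects background, normalizes between arrays and summarizes each probe set; its version is not given in the sources used here, and which arrays were normalized together is not stated. The number of arrays limits the precision. Of 22690 probe sets, 20393 had 1 gene in the platform annotation, 691 several and 1606 none; all 8 enzymes matched the mouse annotation by Entrez ID. Genes were represented by their brightest probe set and kept if the highest of 4 values reached the 40th percentile (4.63). Differences were taken between single arrays, with no test, and counted at 1.5-fold and 2-fold; the counting was tested on simulated data. Named genes are the 8 enzymes, Ets2, pathway-list genes at least 1.5-fold apart in 1 of the 4 differences and the 5 genes nearest to the enzymes' median pattern; some list members within 1.5-fold are also named to complete their lists. The members and lists were chosen with earlier results of these data known. Alternatives were 2 filters, raised low values, 2 probe set rules and 3 normalizations. The mean over probe sets took in those under the filter level too. Tools were Python 3.11.15, pandas 2.3.3, R 4.3.3 and limma 3.58.1. Control probe sets served for array checks only.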

Additional observations from a re-analysis of the deposited data

Results flagged for a closer look

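In 6 of the 8 enzymes Ets2-null minus Ets2-present had a sign in PyMT fibroblasts opposite to that in normal ones, as in 51.4% of kept genes. This contrast was not tested, since each group is 1 array. Of these, 4 were lower in PyMT and higher in normal fibroblasts, as were 23.7% of kept genes. The difference in PyMT minus that in normal fibroblasts was -1.07 for Mvd (-0.28 in PyMT, 0.80 in normal), -0.79 for Idi1 (-0.56 and 0.23), -0.73 for Sqle (-0.61 and 0.13) and -0.47 for Fdft1 (-0.32 and 0.15). It was 0.40 for Fdps (0.30 and -0.10) and 0.25 for Lss (0.06 and -0.19), which went the other way. With each gene as the mean over all its probe sets, kept or not, the values of Fdps, Lss and Fdft1 were -0.23, -0.48 and 0.01. For Lss, whose probe sets were all kept, the sign depends on the probe set used. For Fdps and Fdft1 the sign turned only through probe sets under the filter level. The only kept probe set of Fdps gave 0.40, and both kept ones of Fdft1 were below 0 (-0.47 and -0.01). On their second probe sets Mvd (-1.21 in PyMT, -0.14 in normal) and Idi1 (-0.97 and -0.32) were below 0 in both, with no opposite sign. Sqle has a single probe set.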

How the results depend on the processing

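The 2 filters and the raised low values leave the levels of the 8 enzymes unchanged. Only the probe set rules and the normalizations could therefore move their medians. The medians of the 8 enzymes in the PyMT differences kept their sign under all 8 alternatives, from -1.52 to -1.12 in Ets2-null and from -0.92 to -0.86 in Ets2-present fibroblasts. With the mean over probe sets, the first was -1.52, the median Ets2 difference in PyMT fibroblasts was -0.52, and 1 enzyme in place of 3 was at least 2-fold lower with PyMT in Ets2-present fibroblasts (2 after each normalization or without the _s_at and _x_at probe sets). For the Ets2 difference in PyMT fibroblasts, the count at least 1.5-fold lower was 1 as reported, 3 with the mean over probe sets, 2 without the _s_at and _x_at probe sets (1 of them 2-fold, where 0 were), and 0 after quantile normalization, cyclic loess or median centring. Over all kept genes these counts were, in the same order, 1469 of 8687, 1350 of 8272, 1416 of 8380, 1422 of 8667, 1409 of 8666 and 1226 of 8718. In normal fibroblasts Mvd, 1.5-fold higher as reported, left 0 enzymes so with the mean over probe sets or without the _s_at and _x_at ones, where Mvd was -0.14. After median centring 0 enzymes were 2-fold lower in the subtraction of the Ets2 differences; that centring moved the median of all kept genes in Ets2-null fibroblasts with PyMT to 0.15. Hsd17b7, averaged over its probe sets, turned to 0.11 in PyMT fibroblasts and 0.16 in the subtraction. Of 1565 values of single named genes under the alternatives, 1539 moved by less than the SD that probe sets of a gene imply. Many of them could not move, since a filter changes no level of a kept gene. The counts at 2-fold under the alternatives were added after seeing the data. No paired analysis was possible because each group has 1 array, and for the same reason no array could be left out of a comparison. Among the 8 enzymes, signal near background limits Mvd most, whose second probe set lay under the filter level in the PyMT Ets2-null array.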

Other observations

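Of the kept genes outside the enzymes, the 5 whose 4 array values, centred on their own mean, lay nearest to the median pattern of the 8 were Sox12 (Euclidean distance 0.04), Foxm1 (0.04), Nup37 (0.10), Chtf18 (0.11) and Cdc7 (0.12). Sox12 read 5.18 and 5.49 in PyMT Ets2-null and Ets2-present fibroblasts, against 6.42 and 6.28 in normal ones, and Cdc7, a kinase of replication origins, 7.34 and 7.74 against 8.72 and 8.53. Foxm1, a transcription factor of the cell cycle, was -1.26 with PyMT in Ets2-null and -0.82 in Ets2-present fibroblasts, with its PyMT arrays under the filter level. Chtf18 also lay under that level in both PyMT arrays (3.58 and 3.95). The enzymes themselves lay 0.04 to 0.70 from that pattern, and 1153 other kept genes lay within the larger of these distances, so over 4 arrays the pattern is a common one.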
